A study of Homo sapiens with 6 samples.

Results

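The genes described here encode the collagen chains and the enzymes that hydroxylate and crosslink them. They were taken by symbol from the protein-coding genes of the deposited gene table: every COL chain gene (COL, a number, A and a number), the lysyl oxidases LOX and LOXL1 to LOXL4, the lysyl hydroxylases PLOD1 to PLOD3, and the prolyl 4-hydroxylase alpha subunits P4HA1 to P4HA3. The rule uses symbols and no expression value, although the gene family was picked with earlier results of these data known. This gave 55 of the 46427 genes in the table, of which 19672 were protein-coding, and split into 44 collagen chains and 11 enzymes. RNA-seq was performed on MDA-MB-231 cells, an established human breast cancer cell line, to examine how TAZ affects cancer cell migration. TAZ, the product of WWTR1, is a transcriptional coactivator controlled by the Hippo pathway. The control-siRNA group (genotype labelled WT, 3 libraries) received a control siRNA, and the TAZ-siRNA group (genotype labelled TAZ knockdown, 3 libraries) received a siGENOME siRNA against WWTR1 with DharmaFECT4. Both groups were grown in low glucose DMEM with serum and antibiotics, and each library came from its own cell preparation. All libraries came from 1 cell line and 1 siRNA product, so loss of TAZ and any effect of this siRNA on other transcripts cannot be told apart.

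Collagens are secreted or, as for COL13A1, transmembrane proteins in which chains with a repeating glycine motif wind into a triple helix. Prolyl 4-hydroxylases stabilise the helix and lysyl hydroxylases prepare lysines for crosslinks inside the endoplasmic reticulum, and lysyl oxidases then form the crosslinks outside the cell. In breast tumours, most fibrillar collagen is made by stromal fibroblasts, while tumour cells make basement membrane and cell-surface collagens and the crosslinking enzymes.

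The targeted gene was measured first. WWTR1 (chr3) stood at 192, 189.7 and 190.0 CPM (read counts adjusted for the size and composition of each library) in the control-siRNA libraries and at 17.3, 17.0 and 15.1 CPM in the TAZ-siRNA libraries, an 11.6-fold fall. Library totals ran from 49662504 to 66769103 counts in control-siRNA and from 48307548 to 71749634 in TAZ-siRNA, so 3 counts corresponded to 0.0411 to 0.0618 CPM. The summed markers of the line (VIM, KRT8, KRT18, KRT19, CD44, with EPCAM and CDH1 near 0) lay at 5099 to 5437 CPM in control-siRNA and 4854 to 5223 CPM in TAZ-siRNA. Of the markers of fibroblasts, another source of collagen, DCN was at 0 in every library and LUM and FAP were at or near 0. The 5-gene fibroblast sum was 12.9 to 15.2 CPM in control-siRNA and 17.4 to 19.5 CPM in TAZ-siRNA, nearly all of it PDGFRB. Of the leukocyte markers, PTPRC and CD3E were at 0 and CD14 was at 0.453 to 0.645 CPM in control-siRNA and 0.700 to 0.912 CPM in TAZ-siRNA, without overlap, and its part in the results below was not tested. For endothelial cells, the sum was 5.74 to 6.57 CPM against 6.14 to 8.54 CPM. In bulk RNA, a change in the cells that express a gene cannot be told apart from a change of RNA per cell.

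The most abundant collagen and crosslinking mRNAs were a membrane collagen and several enzymes. In FPKM, which corrects for transcript length and so allows genes to be compared, the mean over the 6 libraries was 118 for COL13A1, a transmembrane collagen of cell adhesions. It was 105.5 for LOXL2, which was above COL13A1 in every control-siRNA library and below it in every TAZ-siRNA library. It was 86.8 for P4HA1, 68.6 for PLOD2 and 56.7 for PLOD1. COL4A2 (48.7 FPKM), COL6A1 (41.1 FPKM), PLOD3 (40.3 FPKM), COL6A2 (35.1 FPKM) and LOX (24.6 FPKM) completed the 10 most abundant. Collagens I and III, the main fibrillar collagens of connective tissue, were scarce, unlike COL5A1 (17.0 FPKM). COL1A1, the major chain of collagen I, had a mean of 1.30 FPKM, and COL1A2, the chain it pairs with, had 2 counts in TAZ-siRNA replicate 2 and 0 in the other 5 libraries. COL3A1 had between 0 and 10 counts per library. In all, 21 of the 55 genes did not pass the filter on low counts and were not tested. They were COL1A2, COL2A1, COL3A1, COL4A5, COL4A6, COL5A3, COL6A5, COL6A6, COL8A2, COL9A1, COL10A1, COL11A1, COL14A1, COL19A1, COL20A1, COL21A1, COL22A1, COL23A1, COL25A1, COL28A1 and P4HA3. COL4A5, COL4A6, COL5A3, COL6A6, COL9A1 and COL23A1 were at 0 in every library.

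**Figure D1:**
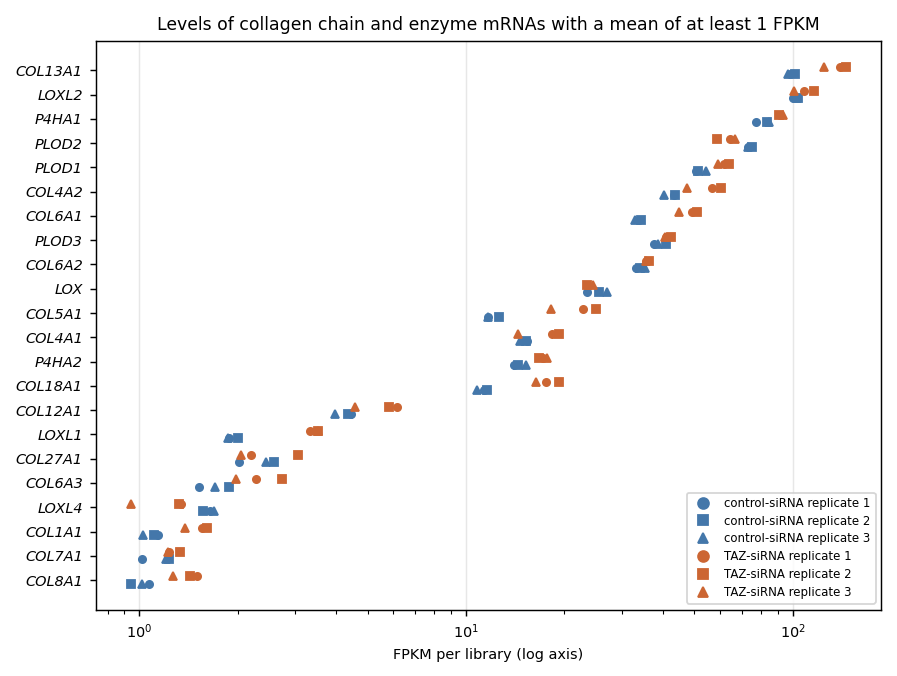
FPKM in each library (horizontal log axis) for the collagen chain and enzyme genes with a mean of at least 1 FPKM, with blue symbols for control-siRNA, orange for TAZ-siRNA and 1 symbol shape per replicate. COL13A1, LOXL2 and P4HA1 lie at the top, and the orange symbols of COL5A1, COL18A1 and LOXL1 lie clearly to the right of the blue ones.

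Of the 24 collagen chains tested, 10 passed as higher in TAZ-siRNA and none as lower, although 3 had log2 fold changes below 0. Of the 34 genes tested, 15 passed an adjusted p of 0.05 (edgeR's quasi-likelihood test): 13 were higher in TAZ-siRNA and 2 were lower. Among all 16966 genes tested, 22.1% passed, 11.9% as higher and 10.2% as lower, against 44.1% of the collagen and crosslinking genes tested. Abundance differs between these sets: with a mean of at least 1 CPM required, 48.4% of 31 collagen and crosslinking genes and 27.6% of protein-coding genes passed. The median log2 fold change was 0.22 over the 34 genes and -0.0054 over all genes tested. The chains called were COL5A1, COL24A1, COL18A1, COL6A1, COL8A1, COL13A1, COL6A3, COL1A1, COL4A2 and COL12A1, and the enzymes were LOXL1, PLOD1 and P4HA2 as higher and PLOD2 and LOXL4 as lower. All libraries of one group lay above all of the other in 17 genes that were higher and 2 that were lower in TAZ-siRNA, where 20.0% and 19.6% of all genes did so. COL5A1, LOXL1, COL24A1 and COL18A1 passed with a change above 1.5-fold. The p-values measure the spread between these 3 cell preparations per group. COL1A1, COL4A1 and COL4A2 also stand in gene lists that the study drew up from these samples, so their direction is not independent evidence.

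The number of calls depended on single libraries. Leaving out 1 library at a time gave 8 (without control-siRNA replicate 1), 9 (without control-siRNA replicate 2), 11 (without control-siRNA replicate 3), 10 (without TAZ-siRNA replicate 1), 12 (without TAZ-siRNA replicate 2) and 17 calls (without TAZ-siRNA replicate 3). Calls over all genes moved alike, at 13.1%, 11.2%, 12.1%, 11.9%, 15.3% and 33.7% in the same order, against 22.1% with all libraries. TAZ-siRNA replicate 3 was the lowest library of its group in each of the 10 chains called. In 7 of these 10 chains, control-siRNA replicate 3 was the lowest of the control-siRNA libraries. The WWTR1 level of TAZ-siRNA replicate 3 was the lowest of its group, and the cause of these low values was not tested. COL13A1, COL5A1, COL18A1, COL6A1, COL8A1, COL1A1, COL4A2 and LOXL1 stayed past the threshold in all 6 of these fits.

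**Figure D2:**
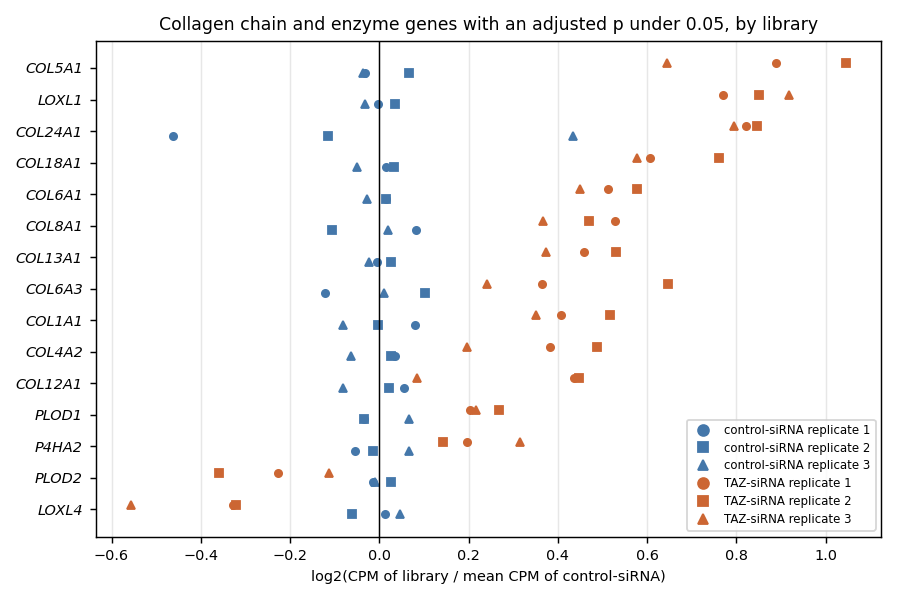
Log2 of the CPM in each library over the control-siRNA mean (horizontal axis) for the 15 genes that passed the test, with blue symbols for control-siRNA, orange for TAZ-siRNA and 1 shape per replicate. TAZ-siRNA replicate 3, the orange triangles, lies nearest to the control libraries in all 10 chains.

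Fibrillar chains, which build the striated fibrils of connective tissue, included COL5A1, which had the largest change among the genes that passed. COL5A1 (chr9:134641789-134844843, the span of its transcripts in the GRCh38 tables), the main chain of collagen V, which nucleates fibrils and sets their diameter, was measured at 110.4, 118 and 110.0 CPM in control-siRNA and at 209, 233 and 177 CPM in TAZ-siRNA. The groups were far apart, with replicate 3 the lowest of the TAZ-siRNA libraries. The log2 fold change was 0.87 ± 0.088 (SE, n = 3 per group; edgeR adjusted p = 2.4e-04), a 1.83-fold rise. COL5A2, the partner chain in the collagen V heterotrimer, was scarce and did not pass (edgeR adjusted p = 0.977), at 0.270 ± 0.05 FPKM in control-siRNA and 0.272 ± 0.0456 FPKM in TAZ-siRNA (SD, n = 3). The FPKM ratio of COL5A1 to COL5A2 therefore stood at 35.7, 50.5 and 50.2 in control-siRNA and 70.4, 106.8 and 70.3 in TAZ-siRNA. These ratios did not overlap between the groups, and the exact 2-sided permutation test gave p = 0.1, the smallest that 3 against 3 libraries allow (0.143 after adjustment over the 10 ratios computed).

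The other fibrillar chains were far below COL5A1. COL1A1 rose from 7.62, 7.20 and 6.82 CPM to 9.56, 10.3 and 9.20 CPM, with no overlap (log2 fold change 0.42 ± 0.088, edgeR adjusted p = 0.007). COL24A1, a minor fibrillar chain, had 0.885, 1.12 and 1.65 CPM in control-siRNA and 2.15, 2.19 and 2.11 CPM in TAZ-siRNA. Its control libraries were widely spread, and the log2 fold change of 0.84 ± 0.22 (edgeR adjusted p = 0.02) failed the threshold without control-siRNA replicate 1 (0.075) or 2 (0.084), or TAZ-siRNA replicate 1 (0.066) or 2 (0.054). COL27A1, a cartilage-type fibrillar chain, and COL11A2 overlapped between the groups, with log2 fold changes of 0.08 ± 0.083 and -0.14 ± 0.32.

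Of the chains that sit on or beside fibrils, COL12A1 alone passed. COL12A1, a collagen that decorates fibril surfaces, was measured at 54.6, 53.3 and 49.6 CPM in control-siRNA and 71.0, 71.6 and 55.7 CPM in TAZ-siRNA. TAZ-siRNA replicate 3 lay just above the highest control library. Its log2 fold change of 0.33 ± 0.091 (edgeR adjusted p = 0.027) held only in the fit without that library (1.2e-05), while dropping control-siRNA replicate 1, 2 or 3 gave adjusted p of 0.061, 0.078 and 0.103 and dropping TAZ-siRNA replicate 1 or 2 gave 0.111 and 0.084. COL9A2 and COL9A3, chains of the cartilage collagen IX, had log2 fold changes of -0.12 and 0.35 and did not pass. The FPKM ratio of COL9A2 to COL9A3 fell from 1.09, 1.02 and 1.28 to 1.00, 0.792 and 0.780, without overlap (exact permutation p = 0.1, 0.143 adjusted). COL9A3 shares its locus in part with TCFL5, a gene measured at 25.5 CPM against 2.66 CPM for COL9A3, so reads may be split between them. COL16A1 and COL7A1, which anchors epithelia to the dermis, did not pass, at log2 fold changes of 0.10 and 0.12.

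Basement membrane collagen IV was carried by COL4A1 and COL4A2, the chains of its ubiquitous heterotrimer. COL4A2 was measured at 314, 312 and 293 CPM in control-siRNA and 399, 429 and 351 CPM in TAZ-siRNA. Every TAZ-siRNA library was above every control library, and the log2 fold change was 0.36 ± 0.074 (edgeR adjusted p = 0.0068). COL4A1 was measured at 113, 117 and 107 CPM in control-siRNA and 132, 143 and 114 CPM in TAZ-siRNA. Here TAZ-siRNA replicate 3 fell among the control libraries, and the log2 fold change of 0.20 ± 0.074 did not pass (edgeR adjusted p = 0.075), although it did without that library (0.29, adjusted p = 3.2e-04). DESeq2 gave COL4A1 an adjusted p of 0.045. The FPKM ratio of COL4A1 to COL4A2 was 0.357, 0.350 and 0.360 in control-siRNA and 0.323, 0.319 and 0.305 in TAZ-siRNA, lower in every library (exact permutation p = 0.1, 0.143 adjusted). COL4A3 (0.12 to 0.611 CPM) and COL4A4 (0.721 to 1.70 CPM), chains of the kidney-type collagen IV, were scarce, and both their levels and their ratio overlapped between the groups. COL4A4 also overlaps RHBDD1, a gene measured at 36.6 CPM against 1.40 CPM for COL4A4.

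COL4A1 and COL4A2 are transcribed away from each other from a single stretch of DNA. Their RefSeq starts (GRCh38.p14) lie at chr13:110307157 for COL4A1 on the minus strand and chr13:110307284 for COL4A2 on the plus strand, 127 bases apart. Both genes share the 126 bases between these starts. Their mRNA ratio did not overlap between the groups, but its adjusted exact permutation p was 0.143. The shared bases, at chr13:110307158-110307283, are printed on the plus strand for this reason. Beside them stand the 250 bases upstream of COL18A1 (chr21:45404915-45405164, plus strand) and LOXL1 (chr15:73926212-73926461, plus strand), which rose strongly and have very different upstream bases. Capitals mark GGGCGG (a GC box), CCAAT and GGAATG (the core of sites of TEAD factors, the DNA-binding partners of TAZ) on either strand.
COL4A1-COL4A2: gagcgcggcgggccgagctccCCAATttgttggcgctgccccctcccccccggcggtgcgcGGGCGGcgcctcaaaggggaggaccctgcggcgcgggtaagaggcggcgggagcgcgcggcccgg
COL18A1: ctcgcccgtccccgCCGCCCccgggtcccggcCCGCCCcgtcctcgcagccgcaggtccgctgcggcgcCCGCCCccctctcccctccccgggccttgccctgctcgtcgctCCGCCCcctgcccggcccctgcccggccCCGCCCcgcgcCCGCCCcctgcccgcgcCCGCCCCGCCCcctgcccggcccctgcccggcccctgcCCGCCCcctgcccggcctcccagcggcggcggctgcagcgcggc
LOXL1: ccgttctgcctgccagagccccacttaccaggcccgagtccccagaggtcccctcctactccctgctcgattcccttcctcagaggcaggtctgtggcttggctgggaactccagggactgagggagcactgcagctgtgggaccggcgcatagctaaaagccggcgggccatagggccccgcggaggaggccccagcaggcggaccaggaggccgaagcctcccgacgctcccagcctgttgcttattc
The collagen IV stretch held 1 CCAAT and 1 GC box, the COL18A1 stretch held 9 GC boxes and the LOXL1 stretch held none of these letters. Their GC contents were 80.2%, 88.4% and 66.8%. In windows of 250 bases before to 50 after the start, available for 28 of the 34 genes tested, GGAATG was found in 3 (COL12A1, LOXL3 and P4HA2), against 14.0% of 27305 promoters. CCAAT was found in 6 of 28 (35.7% of all promoters), GGGCGG in 17 (44.6%) and ACGTG, the core of hypoxia response elements, in 7 (21.6%). These matches describe letters only and were not tested.

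Collagen VI forms beaded microfibrils near cells, and its chains COL6A1 and COL6A3 rose while COL6A2 did not pass. COL6A1 (chr21:45981770-46005048) was measured at 160.1, 160.2 and 155 CPM in control-siRNA and 226, 237 and 217 CPM in TAZ-siRNA, far apart and tight within each group (log2 fold change 0.51 ± 0.050, edgeR adjusted p = 1.7e-04). COL6A2, its neighbour on chromosome 21, was measured at 126, 128 and 133 CPM in control-siRNA and 132, 136 and 139 CPM in TAZ-siRNA. These values overlapped, and the log2 fold change of 0.07 ± 0.046 did not pass (adjusted p = 0.302). COL6A1 and COL6A2 thus stood at nearly equal FPKM in control-siRNA, with ratios of 1.02, 1.01 and 0.932, and at 1.38, 1.41 and 1.26 in TAZ-siRNA (exact permutation p = 0.1, 0.143 adjusted). COL6A3, the third chain of the heterotrimer, was much lower, at 16.8, 19.7 and 18.5 CPM in control-siRNA and 23.6, 28.7 and 21.7 CPM in TAZ-siRNA. It rose by 0.43 ± 0.10 on the log2 scale (edgeR adjusted p = 0.014, but 0.07 without control-siRNA replicate 1 and 0.051 without control-siRNA replicate 3). Its ratio to COL6A1 overlapped between the groups (exact permutation p = 0.6, 0.667 adjusted). COL6A1 made up 48.4% ± 1.24 of the summed collagen VI FPKM in control-siRNA and 55.8% ± 1.31 in TAZ-siRNA (SD, n = 3).

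A membrane collagen, COL13A1, and a basement membrane collagen, COL18A1, also rose. COL13A1 (chr10:69801835-69959144) was measured at 326, 334 and 322 CPM in control-siRNA and 449.6, 473 and 424 CPM in TAZ-siRNA. The lowest TAZ-siRNA library was well above the highest control (log2 fold change 0.46 ± 0.058, edgeR adjusted p = 5.7e-04). COL18A1 (chr21:45405165-45513720), whose end fragment is endostatin, was measured at 69.1, 69.9 and 66.1 CPM and at 104, 116 and 102 CPM, again without overlap (0.65 ± 0.058, adjusted p = 1.1e-04). COL8A1, a short-chain network collagen of vessel walls, was low, at 6.64, 5.83 and 6.36 CPM against 9.05, 8.70 and 8.09 CPM (0.46 ± 0.093, adjusted p = 0.0065). COL17A1, the hemidesmosome collagen, and COL15A1, the closest relative of COL18A1, overlapped between the groups, with log2 fold changes of 0.03 and 0.22. COL26A1 had the largest fitted value, 1.17 ± 0.43, on 0.0964 to 0.12 CPM in control-siRNA and 0.197 to 0.324 CPM in TAZ-siRNA, and did not pass (adjusted p = 0.075).

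Summed over all 44 chains, collagen mRNA was 262, 269.7 and 258 FPKM in control-siRNA and 360.2, 378 and 318 FPKM in TAZ-siRNA, a ratio of 1.34 between the means. COL13A1 alone was 37.6% ± 0.0949 of this sum in control-siRNA and 38.8% ± 0.345 in TAZ-siRNA (SD, n = 3). The share of COL5A1 went from 4.55% ± 0.12 to 6.23% ± 0.457, and that of COL6A2 from 13.0% ± 0.606 to 10.3% ± 0.853. In the plot by class, FACIT stands for fibril-associated collagens with an interrupted triple helix (COL9A2, COL9A3, COL12A1 and COL16A1), multiplexin for COL15A1 and COL18A1, and beaded for collagen VI.

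**Figure D3:**
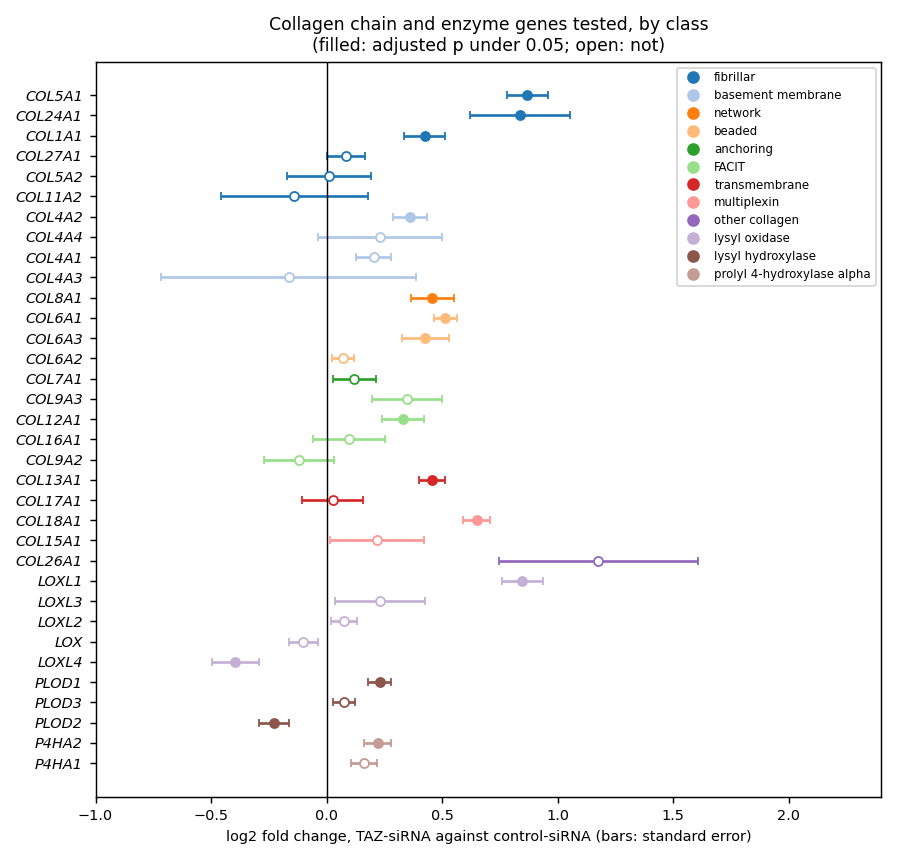
Log2 fold change of TAZ-siRNA against control-siRNA (horizontal axis) with its standard error for the 34 genes tested, coloured by class, filled where the adjusted p was under 0.05. The chains lie mostly to the right of 0, with COL5A1 at 0.87 and COL18A1 at 0.65, while LOXL4 at -0.40 and PLOD2 at -0.23 are the filled points to its left.

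The prolyl 4-hydroxylase alpha subunits are catalytic chains that pair with P4HB, and P4HA2 rose slightly. P4HA1 was measured at 248, 264.5 and 271 CPM in control-siRNA and 285.2, 285.3 and 306 CPM in TAZ-siRNA. The groups did not overlap, but the log2 fold change of 0.16 ± 0.057 did not pass in edgeR (adjusted p = 0.065) and did in DESeq2 (0.017). P4HA2 was measured at 77.0, 79.2 and 83.7 CPM and at 91.6, 88.3 and 99.6 CPM, and passed at 0.22 ± 0.057 (edgeR adjusted p = 0.02). That call was lost without control-siRNA replicate 1 (0.095), control-siRNA replicate 2 (0.092) or TAZ-siRNA replicate 1 (0.056), and after the GC correction below (0.13, adjusted p = 0.207). The P4HA1 to P4HA2 ratio went from 5.50, 5.78 and 5.53 to 5.33, 5.42 and 5.25, a shift of 0.952 times without overlap (exact permutation p = 0.1, 0.143 adjusted).

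Of the lysyl hydroxylases, PLOD1 rose and PLOD2 fell. PLOD1 (chr1:11934717-11975537), which hydroxylates lysines in the helix, was measured at 169.9, 169.8 and 182 CPM in control-siRNA and 200.3, 209.5 and 202 CPM in TAZ-siRNA (log2 fold change 0.23 ± 0.050, edgeR adjusted p = 0.0089). PLOD2 (chr3:146069437-146161495), which hydroxylates the telopeptide lysines that give stable crosslinks, was measured at 309, 318 and 310.3 CPM in control-siRNA and 267, 244 and 289 CPM in TAZ-siRNA (-0.23 ± 0.065, adjusted p = 0.029). Neither gene overlapped between the groups. PLOD1 lost its call without control-siRNA replicate 1 (0.052) or 2 (0.067). PLOD2 kept it only without TAZ-siRNA replicate 3 (5.7e-04), with adjusted p of 0.087, 0.123 and 0.083 without control-siRNA replicates 1, 2 and 3 and 0.095 and 0.086 without TAZ-siRNA replicates 1 and 2. PLOD3, which also adds glucose to hydroxylysine that already carries galactose, did not pass (0.07 ± 0.048). The PLOD1 to PLOD2 ratio in FPKM stood at 0.692, 0.681 and 0.744 in control-siRNA and 0.957, 1.08 and 0.882 in TAZ-siRNA, and the PLOD2 to PLOD3 ratio at 1.95, 1.84 and 1.88 and at 1.57, 1.39 and 1.64. Both shifts were free of overlap (exact permutation p = 0.1, 0.143 adjusted). The summed FPKM of the 3 genes was 164.9 ± 3.15 in control-siRNA and 166 ± 1.01 in TAZ-siRNA, while the share of PLOD2 went from 44.8% ± 0.733 to 38.1% ± 2.28 and that of PLOD1 from 31.5% ± 1.06 to 37.0% ± 1.62 (SD, n = 3).

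Lysyl oxidases oxidise lysines of collagen and elastin to start crosslinking, and among them the scarce LOXL1 rose and the scarce LOXL4 fell. LOXL1 (chr15:73926462-73952137), known for crosslinking elastin, was measured at 5.02, 5.16 and 4.92 CPM in control-siRNA and 8.59, 9.08 and 9.51 CPM in TAZ-siRNA. The groups were far apart, and the log2 fold change was 0.85 ± 0.089 (edgeR adjusted p = 2.2e-04), a 1.80-fold rise. The antisense gene LOXL1-AS1 overlaps the start of LOXL1 and was as abundant, at 6.31 ± 0.274 CPM in control-siRNA and 7.45 ± 0.660 CPM in TAZ-siRNA (SD, n = 3; 0.24, edgeR adjusted p = 0.104). Whether strand was used in counting is not given in the sources used here, so reads of this pair may be split and LOXL1 is uncertain to that extent. LOXL4 was measured at 6.72, 6.38 and 6.88 CPM and at 5.31, 5.33 and 4.53 CPM, lower in every TAZ-siRNA library (-0.40 ± 0.10, adjusted p = 0.02). Its call was lost without control-siRNA replicate 1 (0.071), 2 (0.053) or 3 (0.077) or TAZ-siRNA replicate 1 (0.05), and in limma on log2(FPKM + 1) (0.066).

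The abundant lysyl oxidases did not pass. LOXL2, an extracellular oxidase linked to collagen IV crosslinking, was measured at 419, 430.1 and 430.6 CPM in control-siRNA and 440.3, 475 and 432 CPM in TAZ-siRNA, barely apart (0.07 ± 0.057, edgeR adjusted p = 0.385). LOX was measured at 133, 143 and 153 CPM and at 128, 129.7 and 142 CPM, overlapping between the groups (-0.10 ± 0.062, adjusted p = 0.28, and -0.14 with an adjusted p just under 0.05 without TAZ-siRNA replicate 3). SRFBP1, which overlaps the LOX locus, was lower in TAZ-siRNA (-0.30, adjusted p = 0.0057). LOXL3 also overlapped (0.23 ± 0.19). LOXL2 supplied 77.8% ± 0.791 of lysyl oxidase FPKM in control-siRNA and 78.9% ± 1.26 in TAZ-siRNA (SD, n = 3), and the LOX to LOXL2 ratio overlapped between the groups (exact permutation p = 0.2, 0.25 adjusted).

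**Figure D4:**
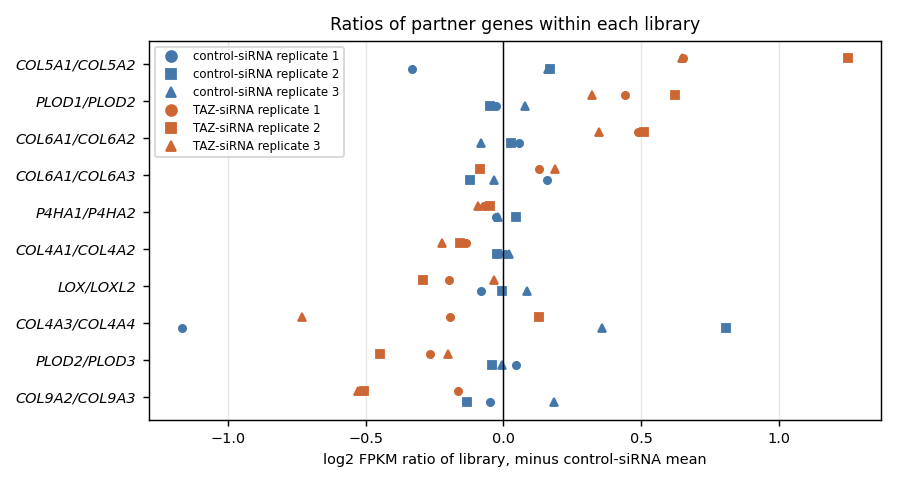
Log2 FPKM ratio of 10 pairs of partner genes in each library, minus its control-siRNA mean (horizontal axis), with blue symbols for control-siRNA, orange for TAZ-siRNA and 1 shape per replicate. In 7 of the 10 pairs the orange and blue symbols do not overlap, with an adjusted exact permutation p of 0.143 each. COL5A1/COL5A2 is shifted by 0.85 and PLOD2/PLOD3 by -0.31. Pairs that share PLOD2 or COL6A1 are not independent, and ratios of other genes were not computed. Among all single genes tested, 20.0% did not overlap as higher and 19.6% as lower.

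These genes are rich in G and C, which can bias counts between libraries. The median GC content was 58.1% over the 34 genes and 49.5% over all genes tested. After a correction of each library for GC content and length, the median log2 fold change of the 34 genes was 0.13. Calls numbered 15 again, 13 of them higher: P4HA2 left and P4HA1 entered (0.18, adjusted p = 0.031). Over all genes, calls rose from 22.1% to 26.6% under this correction, 2115 higher and 2394 lower. COL5A1 went from 0.87 to 0.74, COL18A1 from 0.65 to 0.51, COL4A2 from 0.36 to 0.24 and COL4A1 from 0.20 to 0.08, while LOXL1 stood at 0.87 and PLOD2 at -0.22.

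**Figure D5:**
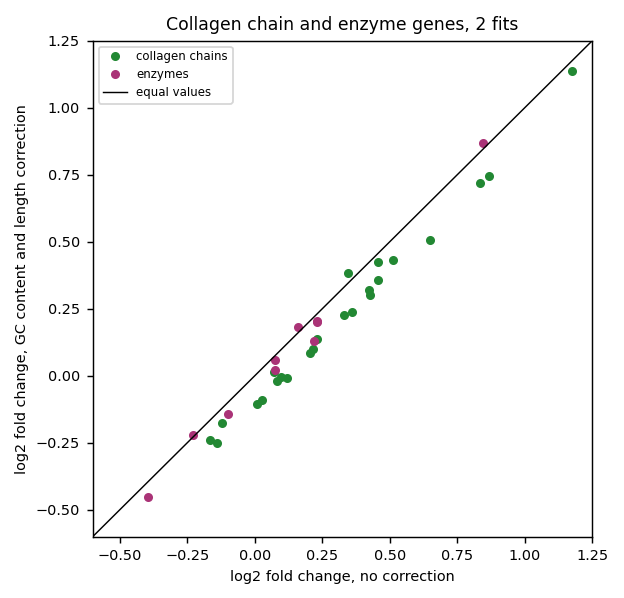
Log2 fold change of the 34 genes without (horizontal axis) and with (vertical axis) the correction for GC content and length, with green points for chains, purple for enzymes and a line of equal values. Nearly all chains lie a little below the line, COL5A1 at 0.87 and 0.74 among them.

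Genes that process collagen were counted in the same fit. Of 25 genes for folding, secretion and trimming of collagen, 23 were tested and 12 passed, 10 higher and 2 lower. That is 52.2% against 22.1% of all genes tested, and the median was 0.30 on the log2 scale. With a mean of at least 1 CPM required, 54.5% of 22 passed, against 27.6% of protein-coding genes. The largest rises were in PCOLCE2, an enhancer of procollagen trimming, at 5.08 ± 0.590 CPM in control-siRNA and 9.09 ± 0.277 CPM in TAZ-siRNA (SD, n = 3; 0.84, edgeR adjusted p = 4.6e-04), and SPARC, a collagen-binding matrix protein, at 54.2 ± 2.38 and 90.5 ± 4.40 CPM (0.74, adjusted p = 6.1e-05). CREB3L1, a transcription factor known to drive collagen genes, rose by 0.56 (adjusted p = 7.8e-04), and COLGALT1, which adds galactose to hydroxylysine, rose by 0.45 (6.7e-04). P3H2, a prolyl 3-hydroxylase of collagen IV, fell from 86.0 ± 0.146 to 65.9 ± 2.13 CPM (-0.38, adjusted p = 4.6e-04), and MIA3, which loads procollagen into transport carriers, fell too (-0.26, adjusted p = 0.0043). P4HB, the shared partner of both P4HA chains, did not pass (0.02 on the log2 scale, adjusted p = 0.848).

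Of 11 collagen receptor genes, 7 were tested and 3 passed (42.9%, against 22.1% of all genes tested), all higher, with a median of 0.14. With a mean of at least 1 CPM required, 50.0% of 6 passed, against 27.6% of protein-coding genes. DDR1, a collagen-activated receptor tyrosine kinase, rose from 44.1 ± 0.845 to 62.9 ± 5.97 CPM (0.51, edgeR adjusted p = 7.8e-04), and ITGA2, the alpha 2 integrin that binds collagen, from 213 ± 4.70 to 301 ± 12.8 CPM (0.50, adjusted p = 2.4e-04). MRC2, an endocytic collagen receptor, rose by 0.27 (adjusted p = 0.011, but 0.057 without control-siRNA replicate 1 and 0.052 without control-siRNA replicate 2). DDR1 and ITGA2 also stand in gene lists the study drew up from these samples. Of 20 genes for fibril and matrix partners, 9 were tested and 4 passed (44.4%), with a median of 0.15: TNXB (0.32, adjusted p = 0.037) and PXDN, the peroxidase that crosslinks collagen IV (0.30, adjusted p = 0.035), were higher, and THBS1 and FBLN1 (-0.27, adjusted p = 0.019) were lower. THBS1, a matricellular glycoprotein, fell from 605 ± 56.7 to 360.2 ± 21.5 CPM (-0.75, adjusted p = 2.0e-04). When each library was dropped in turn, THBS1 kept its call all 6 times, FBLN1 2 times (without TAZ-siRNA replicate 2 or 3, with adjusted p of 0.057 to 0.089 otherwise), and PXDN and TNXB 1 time each, without TAZ-siRNA replicate 3 (5.0e-05 and 0.0078).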

How the data were processed

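mRNA libraries of 3 control-siRNA and 3 TAZ-siRNA preparations of MDA-MB-231 cells were sequenced. Per the methods, the authors used HISAT2 with GRCh38 for mapping after trimming and StringTie for assembly, and the deposited tables hold estimated counts, FPKM and TPM for each gene and transcript, with versions of these tools not given in the sources used here. The submitters' processing notes instead name Bowtie 0.12.2, with the builds GRCh38 and mm8, a mouse build, and this conflict with the methods was not resolved. Libraries are named by the number in their short label. The labels name both an unstranded and a stranded TruSeq kit. The collagen gene list, its classes and the other lists were chosen with earlier results of these data known.

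The deposited estimated counts, whole numbers, were normalised by TMM in edgeR 4.0.16 (R 4.3.3), filtered by filterByExpr at a minimum count of 10, and tested over the whole table of 16966 genes by the robust quasi-likelihood test with Benjamini-Hochberg adjustment, unpaired, at 0.05. The biological coefficient of variation was 8.04%. The code was tested on simulated data. CPM used TMM library sizes. The deposited FPKM gave levels, shares and ratios, the latter compared by an exact 2-sided permutation test over libraries (10 of 14 pairs had both genes tested). The deposited TPM served as an alternative. Transcript values are given as a description. Named genes were those with an adjusted p under 0.05, the 10 most abundant, both genes of each ratio, WWTR1 and, from each list of other genes, up to 4 called rises and 4 called falls with a mean of at least 1 CPM. COL1A2, COL3A1 and other genes outside this rule were named after their values were seen.

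Alternatives were upper-quartile factors, DESeq2 1.42.0, no filter or 10 counts in every library, an adjusted p of 0.01, a replicate block, a spline correction for GC content (GENCODE 44) and length with 5 degrees of freedom (89.7% of genes tested had values), limma 3.58.1 on log2(FPKM + 1) or log2(FPKM + 0.1), and leaving out each library. Replicates were distinct libraries, with chi-square values of 6.77 to 41.8 per degree of freedom. Promoter bases came from RefSeq (GRCh38.p14). No column of the authors' own comparisons was used.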

Additional observations from a re-analysis of the deposited data

How the results depend on the processing

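Counts of called genes kept within 1.5 times of the values above under upper-quartile factors, DESeq2, either other filter, the GC and length correction and, for the collagen and crosslinking genes, limma. At an adjusted p of 0.01, 9 of the 15 collagen and crosslinking genes were called, 2 of the 5 enzymes and 1 of the 4 fibril and matrix partners. Limma on log2(FPKM + 1) and on log2(FPKM + 0.1) each called 2 of these partners. Leaving out 1 library at a time gave 8 to 17 collagen and crosslinking genes, 7 to 11 chains, 1 to 6 enzymes, 10 to 15 maturation genes, 2 to 4 receptors and 1 to 7 partners, while calls over all genes ran from 1937 to 5928. The log2 ratio of COL4A3 to COL4A4 ran from -0.85 to 0.14 in these fits, against -0.27. Other reversed signs were in genes that did not pass: COL5A2 at -0.11 with the GC and length correction, -0.11 with it and the block, and -0.11 to 0.18 leaving out a library. COL4A3 ran from -0.57 to 0.87, COL4A4 from -0.040 to 0.48 and COL9A2 from -0.21 to 0.0075. COL17A1 (-0.09), COL27A1 (-0.018), COL16A1 (-0.006) and COL7A1 (-0.008) were below 0 with the GC and length correction, COL17A1 also reached -0.088 leaving out a library, and COL11A2 reached 0.14. The cause of these changes was not tested. Ratios over counts or TPM kept their direction.

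The replicate numbers were not used as pairs in the main test. The correlations of same-numbered deviations were -0.017, 0.009 and 0.07, and those of differently numbered ones ran from -0.095 to 0.1. With 3 libraries a group, these values cannot decide whether the samples were paired. With a replicate block, 5122 genes were called over the whole table in place of 3749, and 17 collagen and crosslinking genes, 15 higher and 2 lower, with COL4A1 (0.20, adjusted p = 0.0069) and P4HA1 (0.16, adjusted p = 0.015) added. COL4A3 stood at 0.056 under the block. Low counts limit COL24A1, COL26A1, COL4A3 and COL4A4, and the limit of 3 libraries a group keeps the permutation tests at 0.1.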

Other observations

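Transcript estimates, which split the reads of a gene among its annotated forms and were not tested, added detail for some genes. COL18A1 came almost wholly from variant 4, the short form that starts at chr21:45405165, which supplied 93.7% to 99.9% of the gene's FPKM in every library. Of 36 listed COL13A1 transcripts, variant 22 was the most abundant, at 30.0, 29.8 and 25.4 FPKM in control-siRNA and 40.1, 40.0 and 38.0 FPKM in TAZ-siRNA. COL13A1 variants 25 and 30 had higher shares in every TAZ-siRNA library. Variant 25 had 3.89%, 3.80% and 3.72% of the gene's FPKM in control-siRNA and 6.06%, 7.00% and 5.23% in TAZ-siRNA. Variant 30 had 3.06%, 2.90% and 2.73% against 4.81%, 6.02% and 4.38%. Variants 19, 23 and 28 had lower shares in every TAZ-siRNA library, as for variant 19, with 13.2%, 13.8% and 12.0% against 11.4%, 10.1% and 10.2%. The FPKM of variants 19, 23 and 28 overlapped between the groups. Most other COL13A1 variants examined, variant 22 among them, overlapped in share. Shares within a gene are not independent, because a rise in some lowers the rest. How often transcript shares failed to overlap over all genes is not given here, so these variants have no background to be set against.

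P4HA1 variant 2 was estimated at 18.1, 29.6 and 20.9 FPKM in control-siRNA and 34.3, 30.4 and 31.0 FPKM in TAZ-siRNA, barely apart. Its share of the gene's FPKM overlapped, at 23.4%, 35.4% and 24.7% in control-siRNA and 37.4%, 33.5% and 33.25% in TAZ-siRNA. The FPKM of variant 1 also overlapped between the groups. Other splits swung between libraries of a group. PLOD2 variant 1 supplied between 29.5% and 56.5% of its gene's FPKM in control-siRNA alone. The curated LOXL4 transcript supplied 83.9% to 99.0% of LOXL4 FPKM in 5 libraries and 4.75% in TAZ-siRNA replicate 3, the library with the lowest LOXL4 level. KRT19, an epithelial keratin among the markers of the line, rose by 0.37 on the log2 scale (edgeR adjusted p = 0.0012). PDGFRB, among the fibroblast markers, rose by 0.44 (adjusted p = 0.0049) and also stands in a gene list the study drew up from these samples. The part of KRT19 and PDGFRB in the collagen results was not tested.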
